A study of Homo sapiens with 6 samples.

Results

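The 37 genes described here encode proteins of the core spliceosome and of the exon junction complex. They were taken as a named list, and all 37 were found by symbol among the 62700 genes of the gene table. All 37 also passed the filter on low values that left 14292 genes for testing. By role they are 3 proteins particular to the U1 particle, 7 Sm proteins, 3 factors that recognise the branch site and the 3′ splice site, 9 proteins of the U2 particle, 3 of the U4/U6 particle, 4 of the U5 particle, 2 of the Prp19 complex, 5 proteins of the exon junction core and 1 protein associated with it.

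The libraries were made from polyadenylated RNA of TCam-2, a human cell line established from a testicular seminoma. The study sequenced 3 groups of cells, each with 2 libraries, namely non-transduced cells (WT), cells transduced to overexpress FLAG-tagged GFP (GFP), and cells transduced to overexpress FLAG-tagged RBMXL3 (RBMXL3), an RNA-binding protein of the RBMX family. The design names both WT and GFP as negative controls for expression and splicing changes upon RBMXL3 overexpression. Every group is the same cell line, and nothing in the labels says that the libraries of a group came from separate cultures or transductions, so p-values measure the spread between these libraries, which may be technical.

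Pre-mRNA splicing is carried out by the spliceosome, which assembles on each intron from small nuclear ribonucleoproteins (snRNPs) named after their RNAs. U1 reads the 5′ splice site, SF1 and the U2AF heterodimer read the branch site and the 3′ splice site, U2 then binds the branch site, and the U4/U6.U5 tri-snRNP and the Prp19 complex bring the particle to its active form. A ring of Sm proteins is shared by the U1, U2, U4 and U5 particles. After splicing, the exon junction complex stays on the mRNA just upstream of the joined exons, where it acts in export, translation and nonsense-mediated decay.

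Several results below turn on genes with a near copy, or on a choice between exons, and those sequences are shown first, from GENCODE release 29 (GRCh38). SNRPG, on the minus strand at chr2:70281362-70293771, has a processed copy, SNRPGP10, at chr1:205351247-205351471. The copy had 98.2% identity to the SNRPG coding sequence, with 4 of 225 aligned bases different, so a short read often cannot tell them apart. The first 120 coding bases of SNRPG and the matching bases of the copy are shown, with the base that differs in capitals.
SNRPG-201: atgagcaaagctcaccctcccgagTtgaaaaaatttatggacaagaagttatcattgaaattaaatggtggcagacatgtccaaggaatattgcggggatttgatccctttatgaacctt
SNRPGP10-201: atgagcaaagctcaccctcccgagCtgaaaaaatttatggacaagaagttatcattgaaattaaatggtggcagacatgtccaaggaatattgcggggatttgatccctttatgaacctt

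MAGOH (chr1:53226892-53238610, minus strand) and MAGOHB (chr12:10604190-10613623, minus strand) are separate genes for nearly the same exon junction protein. Their coding sequences had 86.4% identity, with 60 of 441 aligned bases different and a longest shared run of 38 bases. The last 180 coding bases of each, in which 24 bases differ, show how the differences (capitals) are spread along the sequence.
MAGOH-202: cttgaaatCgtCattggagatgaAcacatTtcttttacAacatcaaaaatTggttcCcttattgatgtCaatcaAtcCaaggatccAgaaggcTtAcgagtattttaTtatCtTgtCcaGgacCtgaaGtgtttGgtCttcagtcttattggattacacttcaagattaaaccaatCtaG
MAGOHB-201: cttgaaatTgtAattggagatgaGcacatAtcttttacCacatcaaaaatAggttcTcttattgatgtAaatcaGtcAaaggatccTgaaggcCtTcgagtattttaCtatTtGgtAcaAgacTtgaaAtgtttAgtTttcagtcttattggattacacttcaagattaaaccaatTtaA

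U2AF1 (chr21:43092956-43107587, minus strand) carries 1 of a pair of alternative versions of the third exon in its main transcripts. U2AF1-201 uses the exon at chr21:43100453-43100519 and U2AF1-202 the exon at chr21:43101366-43101432. Both exons are 67 bases long and differ at 23 bases (capitals).
U2AF1-201: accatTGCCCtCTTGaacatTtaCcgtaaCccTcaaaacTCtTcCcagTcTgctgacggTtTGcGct
U2AF1-202: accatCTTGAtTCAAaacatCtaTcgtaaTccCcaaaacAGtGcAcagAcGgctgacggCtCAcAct

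EIF4A3 (chr17:80135214-80147183, minus strand) has a main transcript, EIF4A3-209, with an exon of 63 bases at chr17:80141319-80141381 that EIF4A3-207 lacks. That exon is shown in capitals between 15 bases of each neighbouring exon, followed by the junction that joins those neighbours in EIF4A3-207.
EIF4A3-209: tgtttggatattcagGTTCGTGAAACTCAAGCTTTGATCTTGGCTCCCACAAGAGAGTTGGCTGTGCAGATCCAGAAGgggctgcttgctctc
EIF4A3-207: tgtttggatattcaggggctgcttgctctc

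Levels are given as normalised reads, the deposited gene values, that is, counts of reads after the authors' division by 1 size factor for each library. Recovered totals were 23080795 to 29318007 reads in the 4 control libraries, and 17685680 and 21023355 in the RBMXL3 libraries, which were the shallowest. The part of depth in the differences was not tested. RBMXL3 itself had 0 reads in each control library and 84 and 68 reads in the RBMXL3 libraries. It was thus found only where the labels place it, but at a low level (1.80 and 1.31 TPM). The 10 seminoma markers checked were present in every library (POU5F1, for example, at 27460 to 41233 normalised reads). Their levels were not all alike, as KIT and LIN28A were called lower in RBMXL3 against both controls and NANOS3 higher. Against GFP and WT, KIT changed by -0.39 and -0.80, LIN28A by -0.37 and -0.33, and NANOS3 by 0.50 and 0.63. KIT was also lower in GFP than in WT (-0.41). Of the markers of other cells, CD3E was at 0 in every library, PTPRC and ALB had at most 2.1 normalised reads, and KRT5 at most 5.3. SOX2 had 11.7 to 34.2 normalised reads. It was higher in RBMXL3 than in GFP by 0.61 (limma adjusted p = 0.048) and was not called against WT. The collagen genes COL1A1 and COL1A2 were present in all groups. COL1A2 ranged from 8093 to 12709 and COL1A1 from 205.7 to 407.4. Both were lowest in WT, with COL1A2 higher by 0.44 in RBMXL3 and 0.46 in GFP (limma adjusted p = 0.0109 and 0.0418) and COL1A1 by 0.81 and 0.65 (adjusted p = 0.000883 and 0.0243), and neither was called in RBMXL3 against GFP. Their part in the comparisons with WT was not tested.

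Spliceosomal transcripts were more often lower than higher in RBMXL3 libraries, by modest amounts. A gene was called when the adjusted p of a limma fit across all genes (Benjamini-Hochberg) was under 0.05. Against GFP, 14 of the 37 genes were called, 13 lower and 1 higher, where 20.9% of all genes tested were called (10.4% lower and 10.5% higher). Against WT, 16 were called, 14 lower and 2 higher, where 29.9% of all genes were called (15.3% lower and 14.6% higher). Against both controls in the same direction, 10 genes were lower (SNRPD1, SNRPF, SNRPG, U2AF1, SNRPA1, SF3A3, SF3B3, PRPF4, MAGOH and EIF4A3) and 1 was higher (SF3A2), together 11 of 37 genes beside 13.7% of all genes (6.86% lower and 6.88% higher). In a bulk measurement, fewer cells with a transcript and less of it per cell cannot be told apart.

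The shift covered most of the list, but not every role. The median log2 change of the 37 genes was -0.29 against GFP and -0.24 against WT, beside 0.00 and -0.01 for all genes tested. Of the 37 genes, 30 were below 0 in each comparison. The 3 U1 proteins had medians of -0.03 against GFP and 0.02 against WT. For the 3 factors of the branch site and 3′ splice site, the medians were 0.20 and 0.10. Both comparisons use the same RBMXL3 libraries, so they are not independent. Both RBMXL3 libraries lay outside all 4 controls for 25 of 37 genes, 22 below and 3 above, where 46.1% of all genes did so (23.6% below and 22.5% above). Between the controls, 1 of the 37 genes was called, higher in GFP than in WT, where 3.67% of all genes were called (1.76% higher and 1.91% lower), and the median of the 37 was 0.01.

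**Figure D1:**
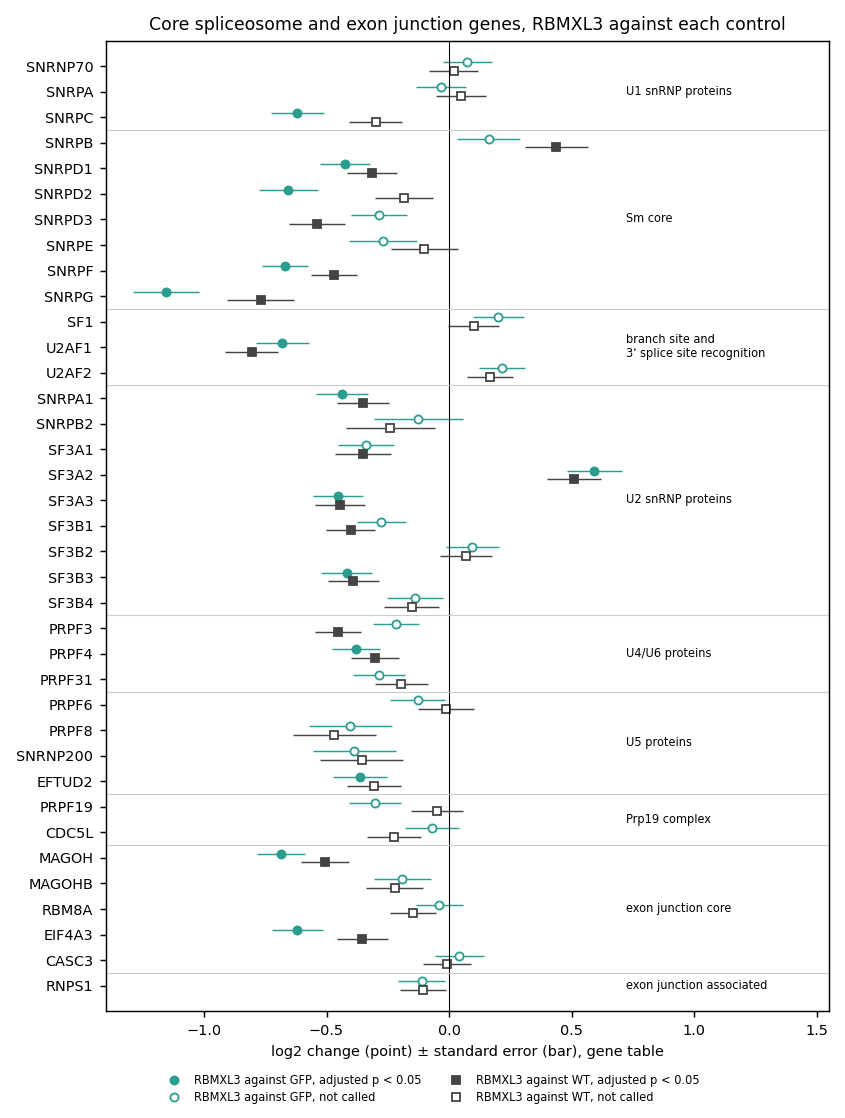
Log2 change (x axis) of each of the 37 genes, grouped by role, in RBMXL3 against GFP (circles) and against WT (squares), with the standard error as a bar and filled symbols for an adjusted p under 0.05. Most points lie left of 0, with SNRPG farthest left at -1.15 against GFP and SF3A2 farthest right at 0.59.

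These counts have limits. Leaving out single libraries moved the count called against both controls between 4 and 19 of 37: it was 5 without the first WT library, 6 without the second, 19 without the second GFP library and 4 without either RBMXL3 library. With each library left out in turn, SNRPG, U2AF1 and MAGOH stayed called in both comparisons, while each of the other 8 genes lost at least 1 call. With the authors' TPM summed per gene in place of the read counts, 3 genes were called against both controls (SNRPG and MAGOHB lower, SF3A2 higher), and the median of the 37 genes was -0.09 against GFP and -0.13 against WT, where the median of all genes was 0.13 and 0.03.

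The Sm ring is built of SNRPB, SNRPD1, SNRPD2, SNRPD3, SNRPE, SNRPF and SNRPG. Within it, 3 of 7 genes were called lower against both controls, where 6.86% of all genes were. SNRPG had 3344 and 4139 normalised reads (WT), 4499 and 5267 (GFP) and 2453 and 1927 (RBMXL3). Both RBMXL3 libraries were below all controls, by a log2 change of -1.15 ± 0.14 (SE) against GFP (limma adjusted p = 0.000364) and -0.77 ± 0.14 against WT (adjusted p = 0.00159). This was the 1 gene of the 37 called in every alternative analysis of both comparisons, summed TPM included. The copy SNRPGP10 was also lower in the gene table, with 394.5 and 529.4 normalised reads (WT), 513.8 and 619.8 (GFP) and 249.8 and 240.6 (RBMXL3). In TPM the copy was at 0 in every library, while SNRPG changed by -1.16 against GFP and -0.85 against WT. The 2 deposited tables thus differed on the level of the copy. How many of the reads given to either gene came from the other, given the sequences shown above, was not tested. The main SNRPG transcript, SNRPG-201, held 92.2% to 94.9% of the gene's TPM in all libraries.

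SNRPF had 3147 and 3297 normalised reads (WT), 3861 and 3558 (GFP) and 2272 and 2370 (RBMXL3), with no overlap between RBMXL3 and the controls. Its log2 change was -0.67 ± 0.10 against GFP (limma adjusted p = 0.000876) and -0.47 ± 0.10 against WT (adjusted p = 0.00343). In SNRPD1 the values were 4025 and 3541 (WT), 3884 and 4279 (GFP) and 3103 and 2959 (RBMXL3). Again the RBMXL3 libraries were the lowest, with changes of -0.43 ± 0.10 (limma adjusted p = 0.0127) and -0.32 ± 0.10 (adjusted p = 0.0346). Neither gene was called in summed TPM, where the changes of SNRPF were -0.37 and -0.32 and those of SNRPD1 -0.22 and -0.06 (limma adjusted p = 0.222 and 0.758).

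The other Sm genes each differed from 1 control at most. SNRPD2 was the 1 gene of the list called between the controls, with 3251 and 4027 normalised reads (WT), 5184 and 4867 (GFP) and 3445 and 2936 (RBMXL3). It was higher in GFP than in WT by 0.47 (limma adjusted p = 0.0492), but no gene of the list was called between the controls in 12 of 15 alternative analyses. Its RBMXL3 libraries lay below GFP (-0.66 ± 0.12, adjusted p = 0.00306) but not clear of WT (-0.18 ± 0.12, adjusted p = 0.258). SNRPB, the one Sm gene that moved upward, had 3931 and 4170 (WT), 4202 and 5729 (GFP) and 5660 and 5332 (RBMXL3). It was called against WT (0.44 ± 0.13, limma adjusted p = 0.0228), while the second GFP library stood above both RBMXL3 libraries. In summed TPM SNRPB changed by 0.01 against GFP and 0.16 against WT (limma adjusted p = 0.974 and 0.305). With a correction for GC content and length, SNRPB was not called against WT either (0.29, limma adjusted p = 0.0776). Its neuronal near copy SNRPN had 4.2 to 21.3 normalised reads but 38.8 to 54.8 TPM across the libraries, so the 2 deposited tables differed on its level. SNRPD3 was called lower against WT alone (-0.54), and SNRPE against neither control (-0.27 and -0.10).

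Per length, SNRPG was the most abundant of the 37 transcripts, with a mean of 722 TPM over the 6 libraries, and CDC5L the least, with 21.8 TPM. In WT the order of the Sm genes was SNRPG at 777 TPM, SNRPF at 709, SNRPD2 at 619, SNRPB at 558, SNRPE at 467, SNRPD1 at 278 and SNRPD3 at 200.1. In RBMXL3 libraries SNRPG stood at 469 and 392 TPM, below SNRPF at 540.1 and 595.

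Among the U1 proteins, none was called against both controls. SNRPC, which helps U1 hold the 5′ splice site, was lower against GFP (-0.62 ± 0.11, limma adjusted p = 0.00259), with -0.30 against WT (adjusted p = 0.0528). SNRNP70 and SNRPA, the other U1-specific proteins, had changes of 0.07 and -0.03 against GFP and 0.02 and 0.05 against WT, and neither was called.

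The small and the large subunit of U2AF did not move alike. U2AF1, the small subunit, which contacts the AG at the 3′ splice site, had 1987 and 1660 normalised reads (WT), 1734 and 1595 (GFP) and 1033 and 1025 (RBMXL3). Both RBMXL3 libraries were below every control, with a change of -0.68 ± 0.11 against GFP (limma adjusted p = 0.00176) and -0.81 ± 0.11 against WT (adjusted p = 0.000341). U2AF2, the large subunit, which binds the polypyrimidine tract, had changes of 0.22 ± 0.09 and 0.17 ± 0.09, and SF1, which binds the branch site, 0.20 and 0.10. Neither was called against either control, although both RBMXL3 libraries of each lay above all controls. In summed TPM, U2AF1 was 480 and 464 (WT), 447 and 430 (GFP) and 354 and 373 (RBMXL3). That smaller change was called against WT (-0.38, limma adjusted p = 0.0384) and not against GFP (-0.27, adjusted p = 0.0983). A near-identical U2AF1 copy, U2AF1L5, is also annotated on chromosome 21, and no value of it was used here, so how reads were divided between the copies was not tested.

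The fall in U2AF1 was shared by both alternative exons. Of the TPM of the gene, U2AF1-201 held 57.4% and 58.8% (WT), 60.8% and 60.2% (GFP) and 58.1% and 59.2% (RBMXL3). U2AF1-202 held 38.5% and 36.2%, 35.4% and 36.2%, and 35.9% and 36.4% in the same order. For both exons shown above, the RBMXL3 shares lay within the range of the controls.

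The U2 particle had 4 of 9 genes called against both controls, 3 lower and 1 higher, where 13.7% of all genes were called. SF3A2 and SF3A3 belong to the same SF3A trimer, which joins U2 to the branch site, and were called in opposite directions. SF3A2 had 4210 and 3377 normalised reads (WT), 3629 and 3490 (GFP) and 5330 and 5430 (RBMXL3). Both RBMXL3 libraries were above all controls, by 0.59 ± 0.11 against GFP (limma adjusted p = 0.00347) and 0.51 ± 0.11 against WT (adjusted p = 0.00498). SF3A3 had 4946 and 4220 (WT), 4632 and 4545 (GFP) and 3349 and 3346 (RBMXL3). Here the RBMXL3 libraries were below all controls, by -0.45 ± 0.10 in each comparison (limma adjusted p = 0.00907 against GFP and 0.00645 against WT). The remaining subunit, SF3A1, was lower against WT (-0.35, adjusted p = 0.0347) and just missed the threshold against GFP (-0.34, adjusted p = 0.0521).

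The call of SF3A2 against WT did not survive a joint correction for GC content and length, whose parts were not separated. Its expressed transcripts were 66.4% GC, the highest of the 37 genes, and all genes over 62% GC had a median change of 0.23 against GFP and 0.37 against WT. When each library was corrected for GC content and length, SF3A2 stayed called against GFP but changed by 0.08 against WT (limma adjusted p = 0.607). The call against WT was also lost without the second WT library or without the second RBMXL3 library. In summed TPM SF3A2 was called against both controls. The gene next to it, AMH, had 93.3 to 187.1 normalised reads.

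SNRPA1, a protein found in the U2 particle alone, had 1729 and 1674 normalised reads (WT), 1651 and 1971 (GFP) and 1333 and 1324 (RBMXL3). Its RBMXL3 libraries were below all controls, by -0.44 ± 0.11 (limma adjusted p = 0.0138) and -0.35 ± 0.11 (adjusted p = 0.0258). SF3B3, a scaffold of the SF3B complex, had 10644 and 10382 (WT), 11590 and 9898 (GFP) and 7952 and 8078 (RBMXL3). Its changes were -0.42 ± 0.10 (limma adjusted p = 0.0153) and -0.39 ± 0.10 (adjusted p = 0.0149). In summed TPM none of these falls in U2 genes was called: SF3B3 changed by -0.12 in both comparisons (limma adjusted p = 0.539 and 0.535), SNRPA1 by -0.09 and -0.12, and SF3A3 by -0.10 and -0.29. SF3B1, the branch-site subunit of SF3B, was lower against WT alone (-0.40, adjusted p = 0.0102, with -0.28 and adjusted p = 0.067 against GFP). SF3B2, SF3B4 and SNRPB2 were called against neither control, and the GFP libraries of SNRPB2 were 2290 and 3935, wider apart than any difference between its groups.

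Of the U4/U6 proteins, PRPF4 fell against both controls, with 1365 and 1329 normalised reads (WT), 1388 and 1458 (GFP) and 1116 and 1061 (RBMXL3). Its groups did not overlap, and its changes of -0.38 ± 0.10 (limma adjusted p = 0.0173) and -0.30 ± 0.10 (adjusted p = 0.0345) were the smallest of the genes called against both controls. The second held in 5 of 15 alternative analyses, and in summed TPM the changes were -0.06 and -0.11. PRPF3, its partner in the particle, was lower against WT alone (-0.45, adjusted p = 0.00376), and PRPF31 was not called (-0.29 and -0.19). All 3 genes had both RBMXL3 libraries below all controls, as did 23.6% of all genes tested.

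The U5 proteins all had values below 0 in both comparisons, and none was called against both. Of all 14292 genes tested, 7135 were below 0 against GFP and 7363 against WT. EFTUD2, the GTPase of U5, was lower against GFP (-0.36 ± 0.11, limma adjusted p = 0.0346) and at -0.31 against WT (adjusted p = 0.0513). PRPF8, the scaffold at the catalytic centre, had 10837 and 11443 normalised reads (WT), 13587 and 8340 (GFP) and 8052 and 8037 (RBMXL3). SNRNP200, the helicase that unwinds U4 from U6, had 16222 and 17834 (WT), 21959 and 13738 (GFP) and 12884 and 13675 (RBMXL3). For both, the RBMXL3 libraries were the lowest of the 6, but the GFP libraries were far apart, and the changes of -0.40 and -0.39 against GFP did not pass the test (limma adjusted p = 0.108 and 0.122). PRPF6, and the Prp19 complex genes PRPF19 and CDC5L, were called against neither control.

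In the exon junction core, EIF4A3 and MAGOH were lower in normalised reads while RBM8A and CASC3 stayed near the controls. MAGOH, which with RBM8A locks the complex on RNA, had 2086 and 2214 normalised reads (WT), 2578 and 2306 (GFP) and 1504 and 1510 (RBMXL3). The RBMXL3 libraries were below all controls, by -0.69 ± 0.10 against GFP (limma adjusted p = 0.00094) and -0.51 ± 0.10 against WT (adjusted p = 0.00277). EIF4A3, the RNA helicase that anchors the complex, had 5889 and 6371 (WT), 7962 and 6821 (GFP) and 4869 and 4712 (RBMXL3). Its changes were -0.62 ± 0.10 (limma adjusted p = 0.00212) and -0.35 ± 0.10 (adjusted p = 0.0233), again with no overlap. In summed TPM they were -0.29 and -0.15 and were not called. RBM8A, the partner of MAGOH, had changes of -0.04 and -0.15, and CASC3, the fourth core protein, 0.04 and -0.01. None of these passed the test, nor did RNPS1, a splicing activator that joins the complex (-0.11 in each comparison). In summed TPM both RBMXL3 libraries of CASC3 lay above all controls. Its changes there, 0.40 against GFP and 0.18 against WT, were not called (limma adjusted p = 0.055 and 0.254).

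The MAGOH pair read differently in the 2 deposited tables. In normalised reads, MAGOHB had 1196 and 1294 (WT), 1089 and 1359 (GFP) and 1063 and 1062 (RBMXL3). The RBMXL3 libraries were the lowest by a small margin, and the changes of -0.19 and -0.22 were not called (limma adjusted p = 0.264 and 0.166). In summed TPM, MAGOHB was 174.9 and 186.8 (WT), 187.9 and 178.8 (GFP) and 109.7 and 116.2 (RBMXL3). There it was called lower against both, by -0.69 (limma adjusted p = 0.018) and -0.67 (adjusted p = 0.011). MAGOH in TPM was 259.9 and 275.3 (WT), 305.6 and 266.2 (GFP) and 207.9 and 218.2 (RBMXL3), again lowest in RBMXL3, with changes of -0.42 and -0.33 that were not called (limma adjusted p = 0.0551 and 0.0804). In both tables, both genes had their lowest values in the RBMXL3 libraries, and which gene passed the test depended on the table.

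**Figure D2:**
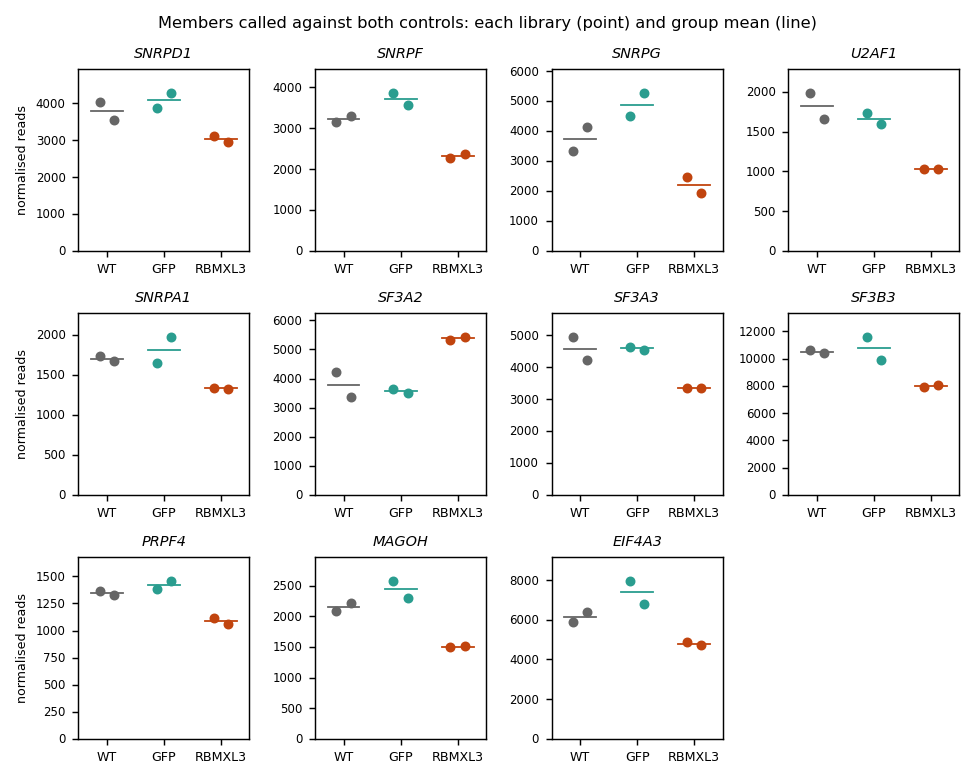
Normalised reads (y axis, from 0) of the 11 genes called against both controls in each of the 6 libraries (points) with the group mean (line). The RBMXL3 points lie below all control points in 10 panels, as in SNRPG at 2453 and 1927, and above them in SF3A2 at 5330 and 5430.

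**Figure D3:**
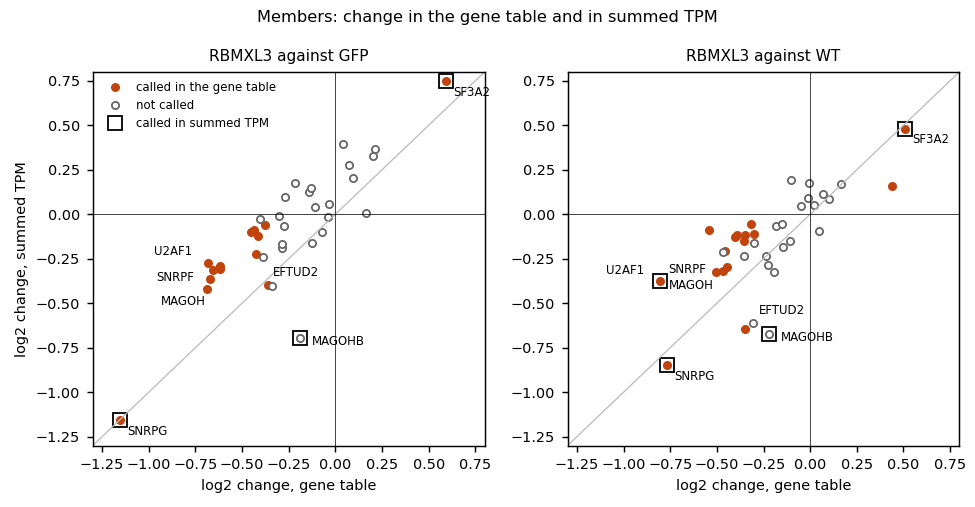
Log2 change of each of the 37 genes in the gene table (x axis) and in TPM summed per gene (y axis), against GFP (left) and WT (right), with filled points called in the gene table, squares called in summed TPM, and a line of equal change. Most called points lie above the line, nearer to 0 in TPM, while SNRPG lies close to it and MAGOHB below it.

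Between the tables, the direction held for all called genes but the size did not. Against GFP, 31 of 37 genes had the same sign in both tables, including all 14 that were called, and 11 of those 14 had a smaller change in TPM. Against WT, 32 of 37 had the same sign, including all 16 called, of which 14 were smaller in TPM. The TPM column of each library is scaled to a fixed total and keeps no depth.

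The 10 genes lower against both controls lay between 35.4% and 52.4% GC, with a median of 47.4%. All genes in the range of 46% to 50% GC had a median change of -0.12 against GFP and -0.16 against WT. With the correction for GC content and length, the median of the 37 genes was -0.31 against GFP and -0.25 against WT. The median of all 13961 genes in that fit was -0.05 and -0.04. Of the 37 genes, 15 were called lower against both controls and none higher. The correction also moved all genes, with 1575 called lower against both and 822 higher, beside 980 and 984 without it.

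**Figure D4:**
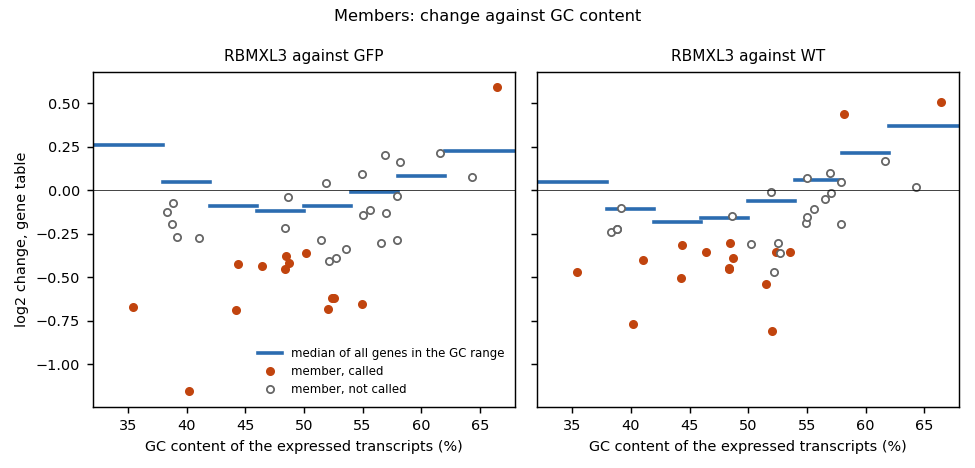
Log2 change in the gene table (y axis) of each of the 37 genes against the GC content of its expressed transcripts (x axis), with filled points called and bars for the median of all genes in each GC range. Between 42% and 54% GC most of the 37 genes lie below the median of all genes, which is itself below 0, and SF3A2 lies at 66.4% GC where that median is above 0.

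Another 86 genes of the spliceosome, of exon junction complexes and of snRNP assembly were measured beside the 37. Of these, 24 were called against GFP (19 lower and 5 higher), or 27.9% beside 20.9% of all genes. Against WT 27 were called (22 lower and 5 higher), or 31.4% beside 29.9%. Against both controls 14 were called (12 lower and 2 higher), or 16.3% beside 13.7%. Counting both directions, the shares called were near those of all genes against WT and against both. Most of the calls were lower, however, where all genes were called lower in 10.4% against GFP, 15.3% against WT and 6.86% against both. The median log2 change of the 86 genes was -0.14 against GFP and -0.15 against WT, with 61 and 58 of them below 0. SF3B6, the p14 subunit that touches the branch adenosine, had 4103 and 3647 normalised reads (WT), 3828 and 4356 (GFP) and 2321 and 2216 (RBMXL3). It was the largest of these falls by its smaller change (-0.84 and -0.76, limma adjusted p = 0.000476 and 0.000342). The genes that rose were LUC7L2, a U1-associated protein (0.85 and 0.68), and SNRNP27, a tri-snRNP protein (0.78 and 0.64). In summed TPM both RBMXL3 libraries of LUC7L2 were above all controls, while SNRNP27 had 60.1 and 56.4 (WT), 57.8 and 60.02 (GFP) and 63.4 and 54.3 (RBMXL3), with overlapping groups. USP39, a tri-snRNP factor, changed by -0.50 and -0.45, and GEMIN6, of the SMN complex, by -0.44 in both comparisons, though in summed TPM the RBMXL3 libraries of GEMIN6 lay within the range of the controls.

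The methylosome, which methylates Sm proteins and hands them to the SMN complex, had all 3 of its measured genes lower against both controls, where 6.86% of all genes were. That grouping was made after the values were seen. CLNS1A, the pICln chaperone of Sm proteins, had 4150 and 3507 normalised reads (WT), 4151 and 4190 (GFP) and 2634 and 2684 (RBMXL3) (-0.64 and -0.52, limma adjusted p = 0.00164 and 0.00304). PRMT5, the methyltransferase, changed by -0.49 and -0.38 (limma adjusted p = 0.0091 and 0.0221), and its partner WDR77 by -0.57 and -0.40 (adjusted p = 0.00339 and 0.0141). In summed TPM, CLNS1A and WDR77 were again lowest in both RBMXL3 libraries, but PRMT5 overlapped the controls, with 104.3 and 122.0 (WT), 147.6 and 97.3 (GFP) and 118.3 and 100.2 (RBMXL3). PRMT5 and WDR77 were named after their values were seen. Of 8 SMN complex genes, GEMIN6 was the 1 lower against both.

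Transcript shares, the part of a gene's TPM held by each annotated transcript, were tested for 167 transcripts of 33 of the 37 genes. SF3B4, PRPF6, PRPF19 and CDC5L had too few expressed transcripts to test. By the share test, none of the 167 was called in any comparison, where 0.921% of all transcripts were called against GFP, 0.807% against WT, 0.652% against both and 0% between the controls. At an unadjusted p under 0.05 there were 35 against GFP, 29 against WT and 6 in GFP against WT, beside 13.9%, 12.8% and 4.75% of all transcripts. limma's diffSplice called 10, 6 and 0 of the 167, and 4 against both controls, beside 4.45%, 4.16%, 0.445% and 2.46% of all transcripts. Against WT and against both controls, the 167 were thus called no more often than transcripts in general.

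Those 4 were EIF4A3-207, EFTUD2-211, MAGOHB-207 and RNPS1-224, all lower in RBMXL3. EIF4A3-207, which joins the junction shown above and skips the exon of 63 bases, held 9.68% and 19.99% of EIF4A3 TPM (WT), 23.7% and 13.6% (GFP) and 1.99% and 2.89% (RBMXL3). The RBMXL3 shares were below all controls (diffSplice adjusted p = 0.000904 and 0.0042, and share test adjusted p = 0.144 and 0.223). EIF4A3-209, which has that exon, held 75.1% and 72.6% (WT), 66.1% and 70.1% (GFP) and 88.5% and 83.8% (RBMXL3), with no overlap (share test adjusted p = 0.0615 and 0.129). In TPM, EIF4A3-209 was 189.2 to 192.9 in the controls and 199.5 and 199.0 in RBMXL3. EIF4A3-207 was 24.4 to 69.2 TPM in the controls and 4.48 and 6.87 TPM in RBMXL3, so the lower TPM of the gene lay outside its main transcript.

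EFTUD2-211, annotated as a target of nonsense-mediated decay, held 20.3% and 16.9% (WT), 15.5% and 15.3% (GFP) and 0% and 7.75% (RBMXL3). The RBMXL3 libraries were lower but unlike each other (diffSplice adjusted p = 0.0358 and 0.0101, share test adjusted p = 0.307 and 0.266). MAGOHB-207, a retained-intron transcript, held 40.2% and 41.6% (WT), 49.7% and 40.9% (GFP) and 31.1% and 31.6% (RBMXL3). RNPS1-224 was listed at 0 in both RBMXL3 libraries and also in the second GFP library, so its groups overlapped. MAGOHB-207 and RNPS1-224 were named after their values were seen.

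Shares moved by at least 10 points from both controls, with RBMXL3 outside all 4, in 9 of the 167 transcripts, or 5.39%, beside 8.48% of 33226 transcripts of genes with at least 5 TPM in every library. These transcripts therefore met the rule no more often than transcripts in general. EIF4A3-207, EIF4A3-209 and EFTUD2-211 were among them. SF1-204 held 33.2% and 29.99% (WT), 28.5% and 34.5% (GFP) and 46.3% and 47.0% (RBMXL3). RNPS1-202 held 22.3% and 20.2%, 15.3% and 32.4%, and 40.8% and 42.5% in the same order. In both the RBMXL3 libraries were close together and, as the rule required, outside the controls, here above them. Neither transcript passed the share test (adjusted p = 0.119 and 0.13 for SF1-204, 0.298 and 0.27 for RNPS1-202).

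PRPF31-204, a shorter transcript of 886 bases, held 28.97% and 28.01% (WT), 33.8% and 20.9% (GFP) and 10.5% and 12.7% (RBMXL3). The main transcript, PRPF31-201, took the opposite course, with 58.9% and 63.4%, 62.04% and 74.9%, and 80.6% and 76.9%. The second GFP library lay nearest to RBMXL3 for both. SNRPE-201 held 12.2% and 34.8% (WT), 4.21% and 22.4% (GFP) and 39.7% and 41.6% (RBMXL3), and SNRPE-205 held 50.3% and 42.5%, 64.0% and 49.1%, and 37.4% and 35.2%. The libraries within each control group of SNRPE were far apart.

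**Figure D5:**
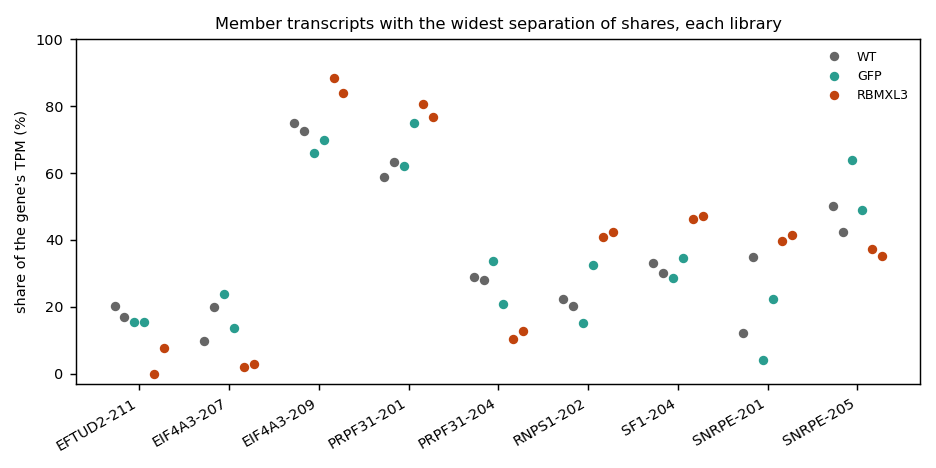
Share of the gene's TPM in percent (y axis) held by each of the 9 transcripts named by rule, in each library (points, coloured by group). The rule required the RBMXL3 points to lie outside all control points, as in EIF4A3-207 at 1.99% and 2.89%. None of the 9 was called by the share test.

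Over all 37 genes, protein-coding transcripts held 85.5% to 87.4% of the TPM in the controls and 88.3% and 87.5% in RBMXL3. Retained-intron transcripts held 5.63% to 7.39% in the controls and 5.66% and 5.999% in RBMXL3, and transcripts annotated for nonsense-mediated decay 1.67% to 1.95% and 1.65% and 1.95%. RBMXL3 overlapped the controls for retained introns and nonsense-mediated decay and lay just above them for protein-coding transcripts.

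The promoters of 33 of the 37 genes were found in RefSeq (GRCh38.p14) and searched on both strands, over the 200 bases before each annotated start, for 5 sets of letters. The core ETS letters CCGGAAG were in at least 1 window of 15 of the 33 genes and in 40.5% of their 42 windows, beside 7.71% of 35116 promoter windows of all genes. The NRF1 motif was in 16.7% of the windows beside 4.78%. The others were CCAAT, in 26.2% beside 28.03%, the GC box GGGCGG, in 45.2% beside 40.1%, and the YY1 letters AAGATGGCG, in 0 of 42 windows beside 0.524%. Windows of a gene can overlap, and a match describes letters, not binding. The windows of all genes cover 27305 genes, expressed in these cells or not, and expressed genes alone were not compared.

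The ETS letters were found in genes that fell, in SF3A2, which rose, and in genes that were not called. Of the 8 genes lower against both controls that had a window, 4 held them. Around the first match, 27 bases are shown on the strand of the gene, with the letters or their reverse complement in capitals, for SNRPG (chr2:70293492-70293518, minus), SNRPA1 (chr15:101295345-101295371, minus), SF3A3 (chr1:37990074-37990100, minus), MAGOH (chr1:53238590-53238616, minus) and SF3A2 (chr19:2236797-2236823, plus).
SNRPG: ttcatttcttCTTCCGGtccgaggtcg
SNRPA1: cgcgccacgaCTTCCGGcaagaacgcc
SF3A3: tcccggggcaCTTCCGGcactcgcgga
MAGOH: cttgttgccaCTTCCGGgcgaagaggt
SF3A2: gggcccgtctcatttgccCCGGAAGtg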

How the data were processed

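The labels' protocols name polyadenylated RNA and a stranded mRNA kit. The submitters' processing notes list Trim Galore 0.6.10, STAR 2.7.11a, Salmon 1.10.2, DESeq2 and the build GRCh38. The read counter, its annotation and its use of strand are not given in the sources used here. The deposited gene table is a normalised signal: 100% of its 145320 nonzero values were whole reads divided by a size factor per library (tolerance 1e-06 of a read). The deposited transcript table holds TPM by the authors, which keeps no depth, and 80.0% of its 251955 transcripts matched GENCODE 29, carrying 94.7% to 95.1% of the TPM.

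The planned test assumed CPM, so gene values were divided by 23.9, which makes the mean column total that of CPM. Genes of at least 1 in 2 or more libraries were kept. Their log2(value + 1), a scale that understates changes of low genes, was fitted with limma 3.58.1 (R 4.3.3) over all 6 libraries with an intensity trend and 1 coefficient per group, two-sided, Benjamini-Hochberg adjusted over 14292 genes. Transcript shares, of transcripts of at least 1 TPM in 2 or more libraries, were tested with limma on their arcsine square root, with diffSplice as an alternative.

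Alternatives were another pseudocount (0.1) and filters, quantile normalisation, edgeR 4.0.16 and DESeq2 1.42.0 on recovered reads, summed TPM, a replicate block and leaving out each library. A GC and length correction was added after seeing the data. Scripts were tested on simulated data. The genes and lists were chosen with earlier results of these data known. Values per library are given for genes called against both controls or between the controls and for genes with near copies. The values of PRPF8 and SNRNP200, and the GFP values of SNRPB2, fall outside that rule. Transcripts are named at 10 points of share, and up to 6 of the other genes by size of change. A count of 0 allows up to 3 reads, counting error only.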

Additional observations from a re-analysis of the deposited data

How the results depend on the processing

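The counts kept within 1.5 times of the values given with the lower pseudocount, edgeR, DESeq2, the mean filter and quantile normalisation, except in GFP against WT. With no filter, calls fell to 7 of 37 against GFP, 8 against WT, 5 against both controls and 5 of the other 86 genes, and over all genes to 950, 2327, 0 between the controls and 673 against both. In that fit 30989 genes were tested. With summed TPM they fell to 3, 4, 3 and 2, and over all genes to 988 (779 higher and 209 lower, beside 1503 and 1483), 1638 (994 higher and 644 lower, beside 2085 and 2186), 0 and 655. The cause was not tested. The GC and length correction gave 1212 higher and 2268 lower against GFP and 1545 and 2548 against WT, and 230 calls in GFP against WT. It turned SNRNP70 against WT from 0.02 to -0.35 (limma adjusted p = 0.00946), and sign changes of genes uncalled in both analyses were not counted as turns.

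In GFP against WT the 1 call, SNRPD2, was lost (0 of 37 genes) with the lower pseudocount, with no filter, with the mean filter, with quantile normalisation, with edgeR, with summed TPM, with the replicate block and with the GC and length correction. Over all genes, quantile normalisation gave 327 calls there. Of the transcripts, diffSplice called 10 against GFP, 6 against WT and 4 against both.

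Replicate numbers are shared by the groups, and same-numbered libraries did not deviate together (r = -0.156, 0.0337 and -0.0941 over 14292 genes). The labels do not say whether they share a preparation, and these values cannot exclude it. With the numbers as a replicate block, 13, 14 and 0 of the 37 genes were called in the 3 comparisons, 9 against both controls and 12 of the other 86, with 191 calls over all genes in GFP against WT and 0 transcripts.

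Leaving out a library leaves 1 library in its group, assumed to vary like the others. Calls then ranged from 6 to 23 of 37 against GFP, 4 to 23 against WT, 0 to 11 in GFP against WT, 4 to 19 against both controls, and 3 to 22 of the other 86. Over all genes they ranged from 679 to 4304, 1428 to 6155, 0 to 2770 and 445 to 2710. Transcripts called by share ranged from 0 to 4 against GFP, 0 to 3 against WT and 0 to 3 against both. The high ends came without a GFP library and the low ends for RBMXL3 comparisons mostly without an RBMXL3 library. With 2 libraries a group, the smallest changes called among the 37 genes were near 0.3 on the log2 scale. Larger changes were not called where libraries spread more, as in PRPF8 against WT (-0.47, limma adjusted p = 0.0525). A gene that was not called can thus have changed by more than 0.3.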
